A study of Mus musculus with 18 samples.

Results

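The transcriptomes of wildtype J774.1 cells treated for 4 h with 1.5 mM MTOB or with 0.25 mM (250 µM) 4-Cl-HIPP were compared directly with each other. J774.1 is an established mouse macrophage line. The comparison takes the 3 MTOB and the 3 4-Cl-HIPP samples of wildtype cells, 6 of the 18 samples of the series, by their labels, and no vehicle sample enters it. The other groups, with 3 samples each, are wildtype cells in vehicle (PBS/DMSO) and Ctbp1/2 dKO cells, which lack both Ctbp1 and Ctbp2, in vehicle, MTOB or 4-Cl-HIPP at the same doses and time. The vehicle level is given beside some genes as a description only, and the 6 inhibitor-treated dKO samples enter the same model. MTOB was added from a stock in PBS and 4-Cl-HIPP from a stock in DMSO, so compound, dose and solvent cannot be told apart. Wildtype and dKO lines came from clones grown out of single cells, and the number of clones behind the samples is not given in the sources used here.

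CTBP1 and CTBP2 are paralogous corepressors that DNA-bound factors recruit to genes. They carry an NAD(H)-binding dehydrogenase fold, and both compounds occupy its substrate pocket. MTOB is the keto acid of methionine and an intermediate of methionine salvage, whereas 4-Cl-HIPP is an oxime acid with a chlorinated phenyl ring in place of the methylthio chain. Macrophages respond to danger signals with chemokines, cytokines and type I interferon, and to electrophilic or heme stress through the factor NRF2.

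The table gives TPM (a level per transcript length that is scaled within each sample) for 18204 genes. The depth of the libraries is unknown, because TPM keep no counts. Replicates correlated with r between 0.985 and 0.987 across genes in these 2 groups. Of 10 macrophage markers, 9 were listed, and their summed TPM was 3299 to 3472 with MTOB, 2650 to 2709 with 4-Cl-HIPP and 2746 to 2838 in vehicle. The part of this difference in the results was not tested. Fewer markers of other cells were listed, namely 2 of 6 for T cells and for neutrophils, 3 of 5 for B cells, endothelial cells and dendritic cells, 1 of 6 for fibroblasts and 1 of 5 for epithelial cells. These summed to at most 2.10 TPM per list in any sample of the 2 inhibitor groups. In bulk RNA, fewer cells of a type and less RNA per cell cannot be told apart.

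MTOB and 4-Cl-HIPP left wildtype cells with different levels of 373 genes. Of these, 230 were higher with MTOB and 143 higher with 4-Cl-HIPP. Those higher with MTOB included 25 of 65 interferon-induced genes, 10 of 26 NRF2 and redox genes, Ccl4, Tnf, Hmox1 and Actg1, and those higher with 4-Cl-HIPP included 4 of 24 sterol synthesis genes, Tgfbr1, Pmepa1 and Mt2. Genes were called with limma on log2(TPM + 1) when the fold exceeded 1.5 and the p-value, adjusted by Benjamini-Hochberg, was under 0.05, where the pseudocount of 1 understates the change of low genes. Among 16383 genes tested, the calls were 2.28% in either direction, 1.4% higher with MTOB and 0.873% higher with 4-Cl-HIPP. By adjusted p alone 1225 genes passed (7.48%), of which 572 genes (3.49%) were higher with MTOB and 653 (3.99%) with 4-Cl-HIPP. The larger differences were on the MTOB side, with 96 called genes over 2-fold and 13 over 4-fold, against 41 and 2 on the 4-Cl-HIPP side. These 2, Commd1b and Gm43809, overlap other genes and rest on libraries listed at 0, as described below. The samples of both groups did not overlap for 24.6% of all genes, 10.2% with MTOB above and 14.4% with 4-Cl-HIPP above. All 230 and all 143 called genes were among these. The median log2 difference over all genes tested was -0.02.

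For 215 of the 230 genes higher with MTOB, the vehicle mean lay nearer to 4-Cl-HIPP than to MTOB, and for 15 nearer to MTOB. For the 143 genes higher with 4-Cl-HIPP the vehicle mean lay nearer to 4-Cl-HIPP in 92 and nearer to MTOB in 51. The vehicle mean stood between both inhibitors for 150 of the 230 and 130 of the 143 genes, and below both for 80 of the 230. These counts are descriptions of levels, with no test against vehicle.

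**Figure D1:**
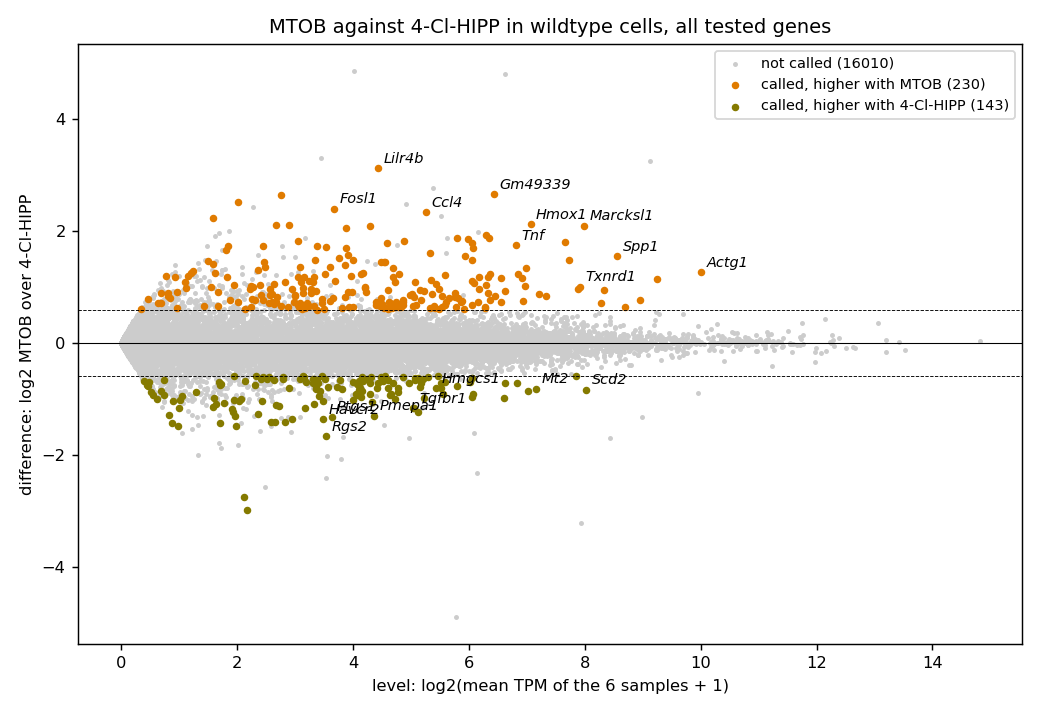
Each point is 1 of the 16383 tested genes, with the mean level of the 6 wildtype inhibitor samples on the x axis (log2(TPM + 1)) and the log2 difference of MTOB over 4-Cl-HIPP on the y axis. Orange points are the 230 genes called higher with MTOB, olive points the 143 called higher with 4-Cl-HIPP, and dashed lines mark the 1.5-fold limit. Among highly expressed called genes, Actg1, Spp1, Marcksl1 and Hmox1 lie above 0, and Scd2 and Mt2 lie below 0.

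Among called genes with a mean of at least 10 TPM and no overlap between the groups, the 12 largest differences on the MTOB side were led by leukocyte immunoglobulin-like receptor genes. Lilr4b, which encodes a myeloid receptor of the gp49 family, was at 35.5, 37.5 and 39.9 TPM with MTOB and at 3.63, 2.94 and 3.76 TPM with 4-Cl-HIPP. Every MTOB sample was above every 4-Cl-HIPP sample, with a log2 difference of 3.12 ± 0.22 (SE, adjusted p = 1.12e-05, limma). The vehicle mean was 5.51 ± 1.21 TPM (SD, n = 3), near the 4-Cl-HIPP level. Gm49339 (log2 difference 2.65) spans Lilr4b and its neighbour Lilrb4a on the same strand of chromosome 10 (51356708 to 51372709, GRCm39), so reads can be split between these genes and their separate values are uncertain.

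The AP-1 subunit gene Fosl1 and the chemokine genes followed. Fosl1 stood at 18.8, 19.7 and 22.7 TPM with MTOB and at 2.16, 3.68 and 3.47 TPM with 4-Cl-HIPP, a log2 difference of 2.40 ± 0.18 (SE, adjusted p = 1.86e-05, limma). Ccl4, which encodes a chemokine that attracts leukocytes, was at 68.4, 60.6 and 60.4 against 13.3, 12.7 and 9.47 TPM (log2 difference 2.33 ± 0.21). Its neighbour Ccl3, a related chemokine gene, was at 122, 123 and 123 against 29.3, 29.9 and 35.8 TPM (1.92 ± 0.08). In all of these genes the MTOB samples lay close together, and none overlapped with a 4-Cl-HIPP sample.

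Hmox1 encodes heme oxygenase 1, which degrades heme. Its TPM was 214, 231 and 204 with MTOB and 46.7, 48.7 and 52.1 with 4-Cl-HIPP, while the vehicle mean was 49.8 ± 1.69 (SD, n = 3). The log2 difference was 2.11 ± 0.08 (SE, adjusted p = 1.08e-07, limma). Marcksl1, a MARCKS-like regulator of actin, was at 425, 418 and 390 TPM against 87.3, 101 and 99.8 TPM (2.09 ± 0.07). For both genes 4-Cl-HIPP lay next to vehicle, whose mean Marcksl1 level was 89.9 ± 4.25 TPM.

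The remaining members of the 12 were Slfn2, Usp18, Clec4e, Pou2f2 and Ehd1, with log2 differences between 1.85 and 2.08. Usp18, which removes ISG15 from proteins, was at 26.9, 22.1 and 19.3 TPM with MTOB and 5.53, 4.17 and 4.53 TPM with 4-Cl-HIPP. Clec4e, the receptor Mincle, averaged 127 ± 6.42 against 34.0 ± 1.77 TPM (SD, n = 3). Pou2f2, the transcription factor OCT2, averaged 85.7 ± 2.69 against 22.8 ± 0.735 TPM. Slfn2 belongs to the interferon-inducible Schlafen family, and Ehd1 acts in endocytic recycling.

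**Figure D2:**
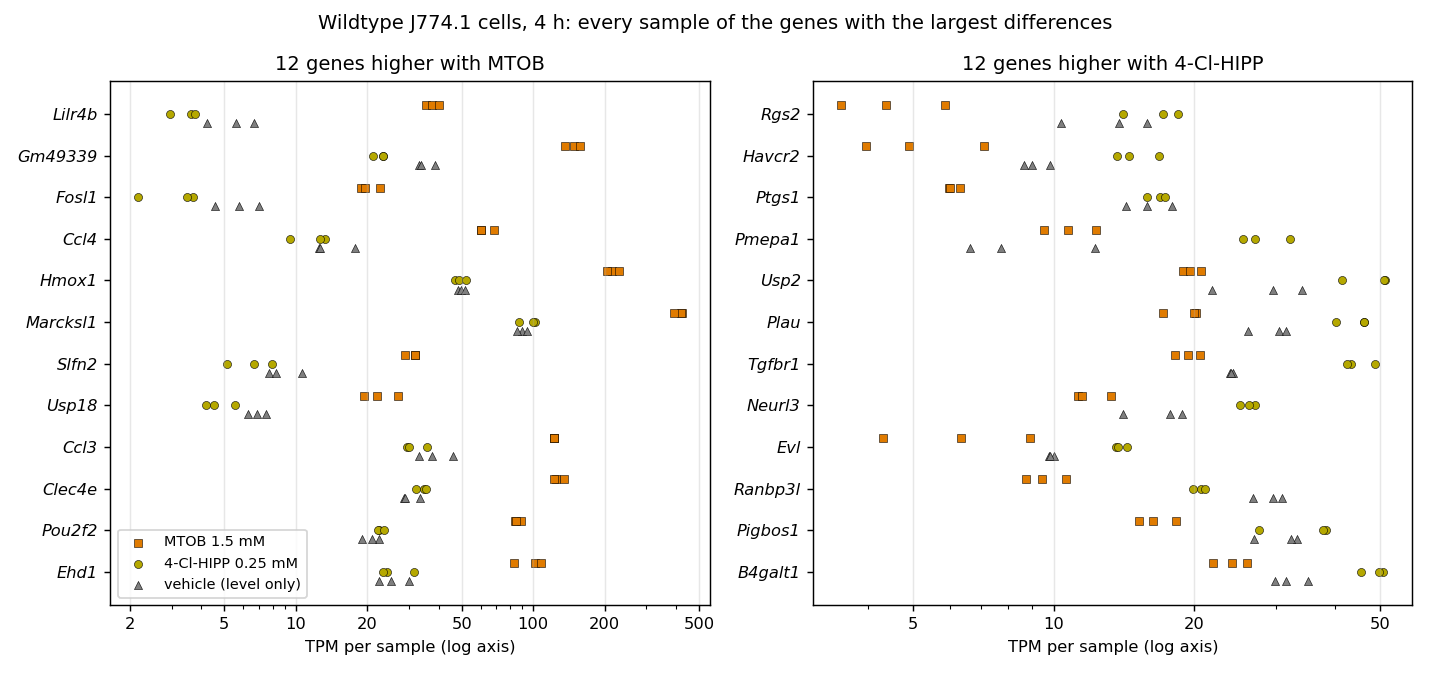
Each point is the TPM of 1 sample on a log axis, for the 12 genes with the largest called differences in each direction (mean of at least 10 TPM, no overlap). Orange squares are MTOB, olive circles 4-Cl-HIPP and grey triangles vehicle, 3 samples each. On the left the circles and triangles lie below every square, and on the right the triangles lie between both inhibitors for most genes, with Pmepa1 vehicle (8.87 TPM on average) next to MTOB and Ranbp3l vehicle (29.1 TPM) above both.

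On the 4-Cl-HIPP side, the largest difference among genes with a mean of at least 10 TPM and no overlap was that of Rgs2. Rgs2, which shortens G-protein signalling by speeding GTP hydrolysis, was at 18.5, 17.1 and 14.1 TPM with 4-Cl-HIPP and at 3.49, 5.85 and 4.38 TPM with MTOB. The log2 difference of MTOB over 4-Cl-HIPP was -1.67 ± 0.15 (SE, adjusted p = 7.35e-05, limma), and vehicle stood at 13.3 ± 2.77 TPM (SD, n = 3). Havcr2, the inhibitory receptor TIM-3, was at 13.7, 16.8 and 14.5 against 3.97, 4.90 and 7.09 TPM (-1.36 ± 0.16). No sample overlapped in either gene, which the choice of these genes required. Ptgs1, which encodes cyclooxygenase 1, was at 16.9, 17.4 and 15.9 TPM with 4-Cl-HIPP and at 6.29, 5.95 and 5.99 TPM with MTOB (-1.32 ± 0.06).

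Pmepa1 and Tgfbr1, both of TGF-β signalling, were also among the 12. Pmepa1, a target of TGF-β that restrains the pathway, was at 25.5, 27.0 and 32.1 TPM with 4-Cl-HIPP and at 9.55, 10.7 and 12.3 TPM with MTOB (-1.30 ± 0.20, adjusted p = 0.00276, limma). Its vehicle mean of 8.87 ± 2.99 TPM (SD, n = 3) lay at the MTOB level. Tgfbr1, the type I receptor, was at 43.3, 48.8 and 42.6 against 18.2, 19.4 and 20.6 TPM (-1.17 ± 0.07), with vehicle at 24.1 ± 0.186 TPM. In the whole list of 22 TGF-β and SMAD genes tested, 2 were called higher with 4-Cl-HIPP and 1 higher with MTOB. Of all genes, 0.873% and 1.4% were called on these sides, and the list median was -0.06.

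Plau, which encodes the protease urokinase, was higher with 4-Cl-HIPP, at 44.3 ± 3.47 TPM with 4-Cl-HIPP and 19.1 ± 1.70 TPM with MTOB (SD, n = 3). The deubiquitinase gene Usp2, the ubiquitin ligase gene Neurl3 and the galactosyltransferase gene B4galt1 were also higher with 4-Cl-HIPP, with log2 differences of -1.24, -1.06 and -0.99. Ranbp3l (-1.03) was lower in both inhibitor groups than its vehicle mean of 29.1 TPM. Evl, a regulator of actin filaments, had a log2 difference of -1.03 with an adjusted p of 0.0188 (limma). That adjusted p was 0.0778 in a fit of the 6 wildtype samples alone, and between 0.0558 and 0.0622 without MTOB replicate 2 or 3 or any one 4-Cl-HIPP replicate. Pigbos1, higher with 4-Cl-HIPP by 2.08 times, overlaps the gene Pigb on the opposite strand, and the unstranded kit cannot separate their reads.

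Genes induced by type I interferon gave the most calls of any list on the MTOB side, in one of the longest lists. Of 65 interferon-induced genes tested, 25 were called higher with MTOB and 0 higher with 4-Cl-HIPP, against 1.4% and 0.873% of all genes. A further 6 passed the adjusted p alone, and 34 did not pass. In a fit of the 6 wildtype inhibitor samples alone, 18 of the 65 were called higher with MTOB, 20 passed the adjusted p on that side, and 0 were higher with 4-Cl-HIPP by either measure. The list median was 0.55 on the log2 scale, beside -0.02 for all genes. The members were at a mean log2(TPM + 1) of 0.26 to 0.47 above the wildtype average in the MTOB samples, -0.31 to -0.21 with 4-Cl-HIPP and -0.15 to -0.07 in vehicle. The 3 groups did not overlap on this score.

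The called members covered regulators, sensors and effectors. Irf7, the factor that amplifies interferon production, was at 26.7, 23.4 and 17.9 TPM with MTOB and at 6.27, 7.08 and 8.85 TPM with 4-Cl-HIPP (log2 difference 1.49 ± 0.17, adjusted p = 0.000313, limma). Among the sensors, Ddx58 (the RNA sensor RIG-I) differed by 1.19 and Dhx58 by 1.18. The RNase L activators Oas3 and Oas2 differed by 1.23 and 1.09. The ubiquitin-like modifier gene Isg15 was at 15.9, 16.9 and 9.04 against 3.34, 4.07 and 5.49 TPM, without overlap, and its adjusted p of 0.00334 became 0.0537 in a fit of the 6 wildtype samples alone. Ifit1, which binds foreign RNA, was low in both groups, at 1.35, 2.60 and 1.81 against 0.379, 0.275 and 0.395 TPM (adjusted p = 0.00387). The MTOB samples varied most in this group, with replicate 3 the lowest for Isg15, Irf7 and Usp18.

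The promoters of Isg15 and Ifit1 are shown because the interferon-stimulated response element, searched on both strands as GAAA, any 2 bases and GAAA, recurs in this list. The windows run from 250 bases before to 50 after the RefSeq start (table build GRCm38.p6), were located by exact match in GRCm39, and are printed 5′ to 3′ on the gene's strand with the matches in capitals. Overlapping matches run together, and a match on the other strand is in capitals as it reads on this one. A gene can have several promoter entries. The first entry holding a match was printed for each gene, so the presence of a match was fixed by the choice. The Isg15 window is chr4:156285226-156285525 (minus strand) with 3 matches, and the Ifit1 window is chr19:34618039-34618338 (plus strand) with 2.
Isg15: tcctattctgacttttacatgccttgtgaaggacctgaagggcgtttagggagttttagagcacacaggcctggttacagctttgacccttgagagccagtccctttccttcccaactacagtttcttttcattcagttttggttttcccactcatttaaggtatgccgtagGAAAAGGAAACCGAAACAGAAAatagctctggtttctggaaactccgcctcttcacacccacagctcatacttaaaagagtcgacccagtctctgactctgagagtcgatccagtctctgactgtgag
Ifit1: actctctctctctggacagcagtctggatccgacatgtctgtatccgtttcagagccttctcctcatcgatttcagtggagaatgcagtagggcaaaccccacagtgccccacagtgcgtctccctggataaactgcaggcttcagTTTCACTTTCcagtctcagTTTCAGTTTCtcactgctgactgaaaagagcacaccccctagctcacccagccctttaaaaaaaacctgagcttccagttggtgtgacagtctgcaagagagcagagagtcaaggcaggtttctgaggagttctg
The element was present in 34 of 66 promoters of the interferon list (51.5%), in 24 of 201 promoters of genes called higher with MTOB (11.9%) and in 4 of 142 of genes called higher with 4-Cl-HIPP (2.82%). Among all promoters of the table the share was 3.44%, and among the 13200 promoters of the 10427 tested genes that matched it was 3.22%. Outside the interferon list, 8 of 179 promoters of genes higher with MTOB held it (4.47%). A match of these letters describes the sequence and is no evidence of binding.

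Some chemokine, cytokine and NF-κB genes were called higher with MTOB. Of 25 chemokine and cytokine genes tested, 5 were called higher with MTOB (Ccl4, Ccl3, Tnf, Spp1 and Ccl9), against 1.4% of all genes. On the 4-Cl-HIPP side 0 were called, 19 of the 25 did not pass the adjusted p, and the list median was 0.21. Tnf, the inflammatory cytokine, was at 174, 171 and 171 TPM with MTOB and at 48.1, 56.7 and 47.2 TPM with 4-Cl-HIPP (log2 difference 1.75 ± 0.07, adjusted p = 1.08e-07, limma). Spp1, which encodes osteopontin, averaged 562 ± 38.4 against 192 ± 11.2 TPM (SD, n = 3). Ccl9 lost its call in the fit of the 6 wildtype samples alone (adjusted p = 0.0637).

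Of 17 genes of NF-κB and its feedback inhibitors, 4 were called higher with MTOB (Traf1, Bcl3, Nfkbiz and Tnip3), against 1.4% of all genes. The adjusted p was passed by 8, against 7.48% of all genes, and not by 9, and the list median was 0.33. The inhibitor gene Nfkbia, itself a target of NF-κB, was at 91.8 ± 1.24 TPM with MTOB and 61.6 ± 2.74 TPM with 4-Cl-HIPP (SD, n = 3), just under the fold limit at 0.57. The number called was 2 in the fit of the 6 wildtype samples and 7 with median-of-ratios scaling or without 4-Cl-HIPP replicate 2. The cyclooxygenase genes differed in opposite directions. Ptgs2, the inducible enzyme, was at 10.7, 13.7 and 11.1 TPM with MTOB and at 2.52, 2.66 and 2.69 TPM with 4-Cl-HIPP (1.82 ± 0.11, adjusted p = 5.31e-06), whereas Ptgs1, described above, was lower with MTOB.

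Of 33 immediate early genes and feedback genes of ERK signalling, 7 were called higher with MTOB and 0 higher with 4-Cl-HIPP. The shares of all genes were 1.4% and 0.873%, and the list median was 0.14. Besides Fosl1, the 7 included Ier3 (1.57), the transcription factor gene Ets2 (1.18) and the ERK phosphatase gene Dusp4 (1.08). Ets2 stood at 110, 111 and 112 TPM with MTOB and at 46.8, 49.1 and 49.8 TPM with 4-Cl-HIPP. Jund, another AP-1 subunit gene, was lower with MTOB at a log2 difference of -0.53 (adjusted p = 0.0191, limma), below the fold limit. The number of the 33 called higher with MTOB was 5 in the fit of the 6 wildtype samples and without 4-Cl-HIPP replicate 1 or 3.

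Of 18 inhibitory immune receptors, 6 were called higher with MTOB and 1, Havcr2, higher with 4-Cl-HIPP, against 1.4% and 0.873% of all genes. The median of the list was 0.27. The 6 include Lilrb4a, which encodes an inhibitory receptor, and Lilr4b, whose product lacks the inhibitory motifs of that receptor and whose reads may be shared with it as described above. Fcgr2b, the inhibitory Fc receptor, averaged 23.6 ± 2.61 against 9.47 ± 1.39 TPM (SD, n = 3). Pdcd1, which encodes PD-1, was at 27.9, 26.4 and 27.4 TPM with MTOB, 14.8, 15.8 and 15.2 TPM with 4-Cl-HIPP and 9.0 ± 0.366 TPM in vehicle. Both inhibitor groups were thus above vehicle for Pdcd1, and MTOB was above 4-Cl-HIPP by 0.80 ± 0.06 (adjusted p = 2.28e-05, limma). Of the 9 macrophage markers tested, 2 were called higher with MTOB, Adgre1 (the F4/80 antigen, 1.70) and Cd14 (the lipopolysaccharide coreceptor, 1.14), 3 more passed the adjusted p alone and 4 did not pass. The differences of the 9 ran from -0.22 (Csf1r, the receptor of macrophage colony-stimulating factor, adjusted p = 0.286, limma) to 1.70.

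NRF2 targets and redox enzymes gave the second most calls, from a shorter list than that of interferon. Of 26 tested, 10 were called higher with MTOB and 0 higher with 4-Cl-HIPP, against 1.4% and 0.873% of all genes. By adjusted p, 17 passed on the MTOB side and 1, Ugdh, on the other, against 3.49% and 3.99% of all genes. The list median was 0.27. In the fit of the 6 wildtype samples alone, 10 of the 26 were called higher with MTOB. On the list score, MTOB samples lay at 0.32 to 0.35, 4-Cl-HIPP samples at -0.15 to -0.11 and vehicle samples at -0.24 to -0.15. The cystine transporter gene Slc7a11 was at 15.3, 17.5 and 17.1 TPM with MTOB and at 3.78, 4.59 and 4.85 TPM with 4-Cl-HIPP (1.71 ± 0.10, adjusted p = 3.23e-06, limma). Glrx, the glutaredoxin gene, was at 102, 102 and 100 against 33.4, 25 and 28.2 TPM (1.78 ± 0.11).

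Txnrd1, the cytosolic thioredoxin reductase, was at 330, 319 and 320 TPM with MTOB and at 156, 165 and 162 TPM with 4-Cl-HIPP, a log2 difference of 1.00 ± 0.04 (adjusted p = 2.29e-07, limma). No sample overlapped, and vehicle stood at 170 ± 3.41 TPM (SD, n = 3). The autophagy receptor gene Sqstm1 differed by 0.96 and the sulfiredoxin gene Srxn1 by 0.89. Both subunits of the glutathione-synthesis enzyme passed the adjusted p below the fold limit, Gclm at 0.49 and Gclc at 0.26.
The Txnrd1 promoter (chr10:82694790-82695089, GRCm39, plus strand, same source) is shown with its single match to the antioxidant response element core, TGACNNNGC on either strand, in capitals. The match lies on the other strand, and the window was chosen for holding a match, as above.
Txnrd1: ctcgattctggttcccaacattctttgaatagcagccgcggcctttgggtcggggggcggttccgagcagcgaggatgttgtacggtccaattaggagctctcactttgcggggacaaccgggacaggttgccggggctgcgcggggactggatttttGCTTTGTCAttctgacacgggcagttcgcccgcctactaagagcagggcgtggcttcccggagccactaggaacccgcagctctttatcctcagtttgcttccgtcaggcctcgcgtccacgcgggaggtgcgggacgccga
The core was present in 10 of 34 promoters of the NRF2 and redox list (29.4%), in 12.4% of all promoters, in 14.2% of those of tested genes, in 26 of 201 promoters of genes higher with MTOB (12.9%) and in 24 of 142 of genes higher with 4-Cl-HIPP (16.9%).

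Iron and heme genes counted 4 of 21 called higher with MTOB and 0 higher with 4-Cl-HIPP, against 1.4% and 0.873% of all genes. The list median was 0.13. Slc40a1, the iron exporter ferroportin, was at 20.2, 22.7 and 21.1 TPM with MTOB and at 4.97, 4.89 and 8.31 TPM with 4-Cl-HIPP (1.70 ± 0.25, adjusted p = 0.00176, limma). The iron importer gene Slc11a2 differed by 0.87. Both ferritin subunits passed the adjusted p with smaller differences, Ftl1 at 0.42 and Fth1 at 0.35.

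Of the metallothionein genes, whose products bind zinc and other metals, Mt2 was called higher with 4-Cl-HIPP. Mt2 was at 193, 189 and 164 TPM with 4-Cl-HIPP and at 102, 95.9 and 108 TPM with MTOB, without overlap (-0.82 ± 0.13, adjusted p = 0.00243, limma). Vehicle stood at 76.8 ± 2.40 TPM (SD, n = 3), below both. Mt1 had an adjusted p of 0.204, with 421 ± 13.9 TPM under 4-Cl-HIPP and 382 ± 6.74 TPM under MTOB. The zinc transporter gene Slc30a4 was the only member of the 17 zinc and metallothionein genes called higher with MTOB (0.65), and the call was lost without MTOB replicate 3 or without 4-Cl-HIPP replicate 2 because the fold fell under the limit.
The Mt2 promoter (chr8:94898996-94899295, GRCm39, plus strand, same source) holds 6 matches to TGCNCNC on either strand, shown in capitals. These letters are a loose form of the metal response element core, and the window was chosen for holding a match. This loose string is common, with a match in 51% of all promoters and 58.8% of those of tested genes.
Mt2: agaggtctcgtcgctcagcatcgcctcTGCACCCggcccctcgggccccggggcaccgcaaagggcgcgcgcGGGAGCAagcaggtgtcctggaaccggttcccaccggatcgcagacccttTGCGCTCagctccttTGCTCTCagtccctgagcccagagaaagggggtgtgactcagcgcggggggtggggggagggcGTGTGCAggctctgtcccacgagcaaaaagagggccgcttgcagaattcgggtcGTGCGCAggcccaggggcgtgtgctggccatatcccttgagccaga

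**Figure D3:**
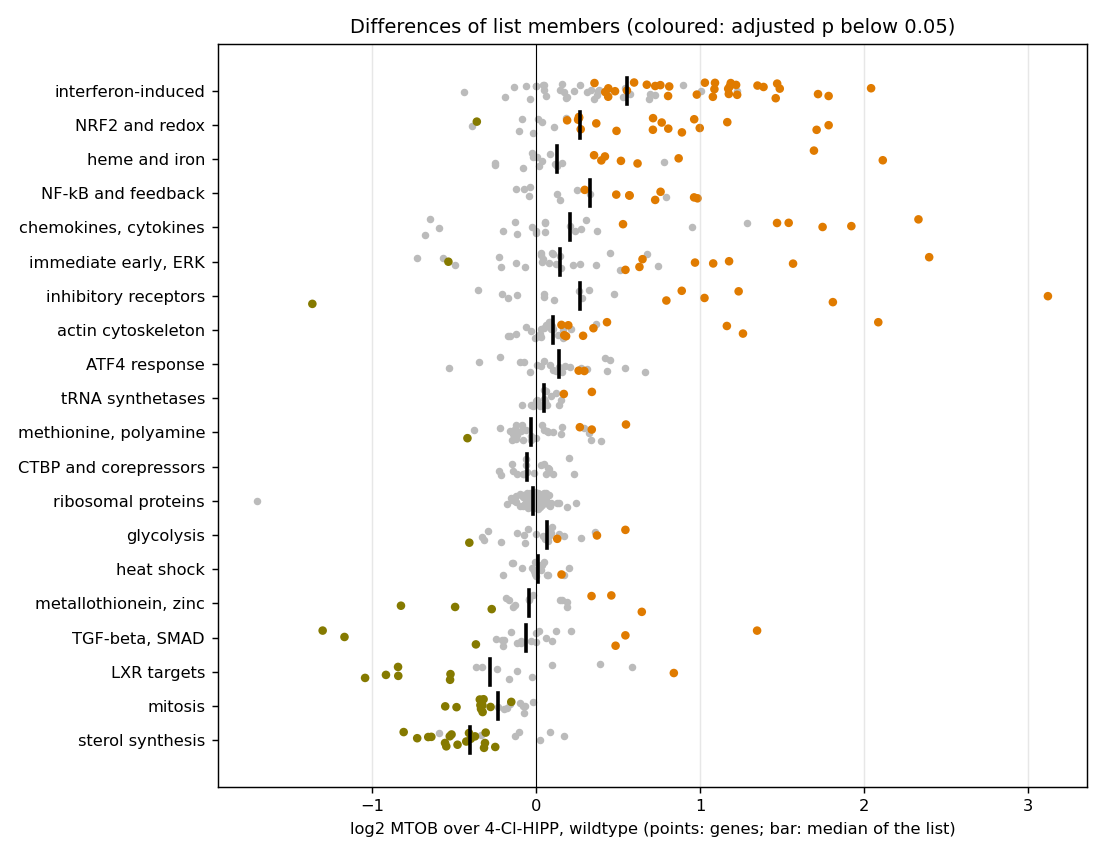
Each point is a gene of the list named on the y axis, placed by its log2 difference of MTOB over 4-Cl-HIPP in wildtype cells. Coloured points have an adjusted p below 0.05 (orange higher with MTOB, olive higher with 4-Cl-HIPP), grey points do not, and the black bar is the list median. The interferon list has the highest median (0.55) and the sterol synthesis list the lowest (-0.40) of the 20 lists drawn.

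Genes of the actin cytoskeleton included some of the most abundant called transcripts. Actg1, the cytoplasmic gamma actin, was at a mean of 1449 ± 44.0 TPM with MTOB and 604 ± 19.5 TPM with 4-Cl-HIPP (SD, n = 3), a log2 difference of 1.26 ± 0.03 (adjusted p = 9.72e-09, limma). Its vehicle mean was 664 ± 18.2 TPM. Of 33 actin cytoskeleton genes, 3 were called higher with MTOB (Marcksl1, Actg1 and Abr) and 0 higher with 4-Cl-HIPP, against 1.4% and 0.873% of all genes. On the MTOB side 10 passed the adjusted p, against 3.49% of all genes, and the list median was 0.10. Actb, the beta actin often used for normalization, differed by 0.35, and the cofilin gene Cfl1 and the profilin gene Pfn1 by 0.20 and 0.18.

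Genes of sterol synthesis were higher with 4-Cl-HIPP. Of 24 tested, 17 passed the adjusted p higher with 4-Cl-HIPP and 0 higher with MTOB, against 3.99% and 3.49% of all genes, and 4 were called with the fold limit (Hmgcs1, Dhcr7, Mvd and Cyp51). The median was -0.40. Hmgcs1, the HMG-CoA synthase that feeds the mevalonate pathway, was at 56.0, 52.0 and 54.6 TPM with 4-Cl-HIPP and at 33.6, 28.4 and 29.8 TPM with MTOB (-0.81 ± 0.07, adjusted p = 5.21e-05, limma). On the list score vehicle lay between both inhibitors, at -0.06 to -0.02 beside -0.24 to -0.13 with MTOB and 0.17 to 0.23 with 4-Cl-HIPP. The call of Dhcr7 was lost in the fit of the 6 wildtype samples (adjusted p = 0.0752), and that of Cyp51 without MTOB replicate 3, where its fold fell under the limit.

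Of 16 targets of the oxysterol receptor LXR, 4 were called higher with 4-Cl-HIPP (Arl4c, Scd1, Scd2 and Abcg1), against 0.873% of all genes. Only 1, the lipoprotein lipase gene Lpl, was called higher with MTOB, against 1.4% of all genes. The list median was -0.28. Scd2, a fatty acid desaturase gene, was at 343, 297 and 359 TPM with 4-Cl-HIPP and at 193, 173 and 189 TPM with MTOB (-0.84 ± 0.09, adjusted p = 0.000175, limma). Scd1 and Abcg1 lost their calls without 4-Cl-HIPP replicate 3 (adjusted p = 0.0514) and without MTOB replicate 2 (adjusted p = 0.0526). Arl4c was low throughout, at 1.52 ± 0.207 TPM with 4-Cl-HIPP, 0.219 ± 0.0349 TPM with MTOB and 0.247 TPM in vehicle.

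Of 19 mitotic genes, 10 passed the adjusted p lower with MTOB, against 3.99% of all genes. All 19 had a negative log2 difference, and the list median was -0.23, beside -0.02 for all genes. With the fold limit 0 were called. Cks2, a cofactor of cyclin-dependent kinases, was at 258, 248 and 261 TPM with 4-Cl-HIPP and at 169, 184 and 170 TPM with MTOB (-0.55 ± 0.07, adjusted p = 0.0008, limma). On the list score the vehicle samples lay at 0.07 to 0.15, next to 4-Cl-HIPP at 0.06 to 0.08 and above MTOB at -0.19 to -0.16. Of 24 DNA replication genes, 4 passed the adjusted p, against 7.48% of all genes, and 0 the fold limit.

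**Figure D4:**
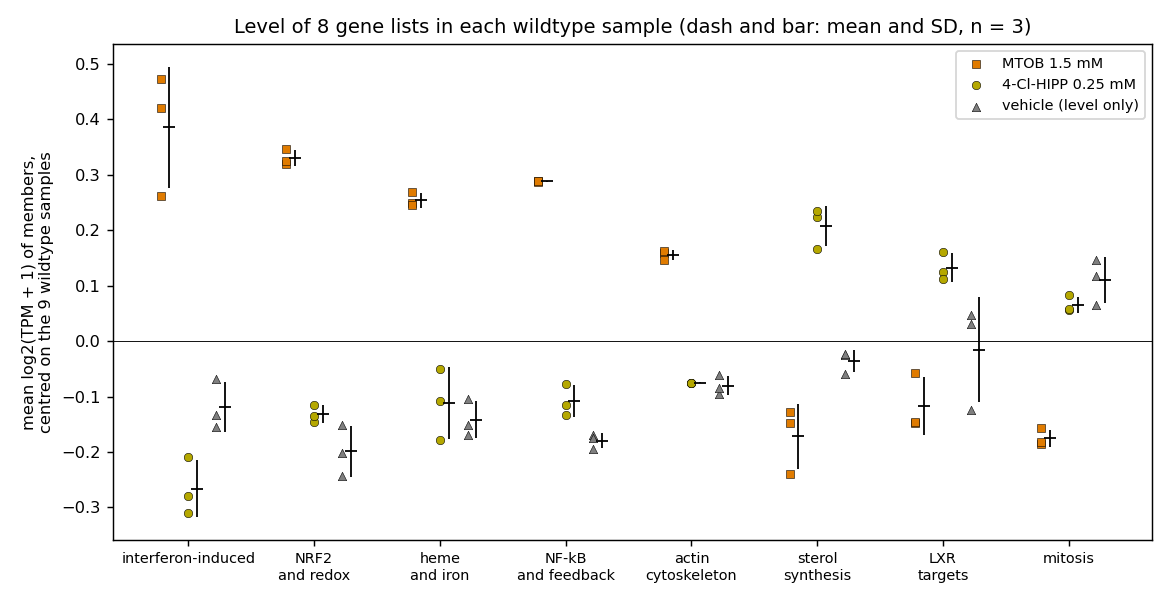
The y axis is the mean log2(TPM + 1) of the genes of a list in each sample, centred on the 9 wildtype samples, for 8 lists. Points are samples (orange squares MTOB, olive circles 4-Cl-HIPP, grey triangles vehicle), and the dash and bar beside them are the mean and SD of 3 samples. MTOB samples lie above 4-Cl-HIPP samples in the first 5 lists and below them in the sterol, LXR and mitosis lists.

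Lists close to the known biochemistry of the compounds held 0 called genes. Of all genes tested, 2.28% were called and 7.48% passed the adjusted p. Of 31 genes of the methionine cycle, methionine salvage and polyamine synthesis, 0 were called and 4 passed the adjusted p. These were Odc1, the ornithine decarboxylase gene (0.55), Bcat1 (0.34), Amd1 (0.27) and Mat2b (-0.42). With 2.28% of all genes called, 0 calls in a list of this size do not set it apart. Ctbp1, which lies on the target side, averaged 187 ± 15.2 TPM with MTOB and 219 ± 16.1 TPM with 4-Cl-HIPP (SD, n = 3), a log2 difference of -0.22 with a 95% interval of -0.54 to 0.09 (adjusted p = 0.453, limma). Ctbp2 averaged 93.5 ± 1.76 against 88.9 ± 0.854 TPM, with an interval of -0.06 to 0.21. None of the 19 CTBP and corepressor genes passed the adjusted p, and 0 of the 81 ribosomal protein genes did.

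Lists of the ATF4 response (25 genes), tRNA synthetases (18), heat shock (18), the unfolded protein response (20), glycolysis (24), translation elongation (16) and cyclin-dependent kinase inhibitors with p53 targets (16) had 0 called genes. By adjusted p alone, which 7.48% of all genes passed, they held between 1 and 5 genes each. The kinase inhibitor and p53 list had 2 higher with MTOB and 3 higher with 4-Cl-HIPP. In the same order the unfolded protein response had 1 and 3, and glycolysis 3 and 1. The ATF4 and tRNA synthetase lists had 2 and 0 each, and heat shock and translation elongation 1 and 0 each. Of 11 KLF factors, 2 were called higher with 4-Cl-HIPP, Klf11 (-1.44) and Klf4 (-0.76), against 0.873% of all genes. The call of Klf4 was lost without MTOB replicate 1 (adjusted p = 0.0605) and without 4-Cl-HIPP replicate 1 or 2. Among genes whose mean normalized count reached 10, the 95% interval of the difference lay within 1.5-fold for 7948 of 11044 (72.0%).

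The remaining lists were mixed. Of all genes, 1.4% were called higher with MTOB and 0.873% higher with 4-Cl-HIPP. Of 14 prostanoid and leukotriene genes, 1 was called on each side (Ptgs2 and Ptgs1). Of 18 G-protein regulators, 2 were higher with 4-Cl-HIPP (Rgs2 and Gna15) and 1 higher with MTOB (Rgs16), and the call of Gna15 was lost in the fit of the 6 wildtype samples (adjusted p = 0.0563) and, by its fold, without 4-Cl-HIPP replicate 2. Of 19 phagocytic receptors, 3 were higher with MTOB (Cd14, C5ar1 and Msr1), and C5ar1 lost its call in that fit (adjusted p = 0.064). Of 32 lysosomal genes, 1, Wipi1, was called higher with 4-Cl-HIPP, a call that was lost in that fit (adjusted p = 0.125), without MTOB replicate 1 or 2 and without 4-Cl-HIPP replicate 1 or 3.

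Genes named in the study itself took different places. Cpd, which encodes carboxypeptidase D, was at 95.6, 97.7 and 104 TPM with MTOB and at 43.1, 44.4 and 42.6 TPM with 4-Cl-HIPP (1.17 ± 0.04, adjusted p = 9.78e-08, limma). With vehicle at 28.5 ± 0.829 TPM (SD, n = 3), both inhibitor groups lay above it. Xylt1, a xylosyltransferase of proteoglycan synthesis, averaged 6.29 and 5.32 TPM, a log2 difference of 0.20 with a 95% interval up to 0.40 (adjusted p = 0.258), against a vehicle mean of 2.97 TPM. Angpt2 differed by -0.42 (interval -1.24 to 0.40, adjusted p = 0.626), and its samples overlapped. The HIN-200 family gene Ifi207 was at 8.29, 8.06 and 5.76 against 1.25, 1.47 and 1.87 TPM (1.72 ± 0.16).

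The same contrast in Ctbp1/2 dKO cells asks whether the compounds differ where neither CTBP is made. There 339 genes were called (2.07%), 194 higher with MTOB and 145 higher with 4-Cl-HIPP. Of the 373 genes called in wildtype, 182 were called in dKO in the same direction, which is 48.8% of the wildtype calls and 53.7% of the dKO calls. The sign in dKO was the same for 222 of the 230 genes higher with MTOB and for 132 of the 143 higher with 4-Cl-HIPP. Across the 373 genes the median ratio of the log2 difference in dKO to that in wildtype was 0.69. The genes were selected by their wildtype difference, which by itself lowers this ratio. Some genes differed at least as much in dKO. Hmox1 differed by 2.24 in dKO and by 2.11 in wildtype, Tnf by 1.76 and 1.75, Slc7a11 by 2.05 and 1.71, Tgfbr1 by -1.24 and -1.17, and Txnrd1 by 1.03 and 1.00. The interferon list had 15 called genes in dKO and a median of 0.33, and the NRF2 and redox list 12 and 0.40.

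The direct test of the difference between genotypes (limma) passed the adjusted p for 14 genes (0.0855%). An unadjusted p below 0.05 was found for 1046 of the 16383 genes, a limit that a share of 0.05 passes when no gene differs. Among the 373 genes called in wildtype, 135 had such a p, a number that selection by the wildtype difference can raise by itself. With simulated 2-fold changes, the procedure recovered 57.8% of differences between genotypes and 94.8% of differences between compounds in wildtype. A gene that did not pass can therefore still differ between genotypes. The difference between compounds was larger in wildtype for Pou2f2, Abr, Marcksl1, Cpd, Lyn and Stk10. Pou2f2 was at 51.3, 50.7 and 52.9 TPM with MTOB and 23.9, 21.0 and 23.7 TPM with 4-Cl-HIPP in dKO, a log2 difference of 1.14 beside 1.87 in wildtype (difference 0.72 ± 0.07, adjusted p = 0.0106, limma). Abr, a regulator of small GTPases, differed by 0.52 in dKO and by 1.16 in wildtype (difference 0.64 ± 0.07, adjusted p = 0.0207). The kinase gene Lyn, a Src-family member, was at 97.0, 86.4 and 98.0 against 60.5, 61.7 and 58.0 TPM in wildtype, and at 71.4, 73.4 and 71.3 against 68.5, 68.2 and 67.9 TPM in dKO. Ptgs1 was far higher in dKO cells, at 166, 154 and 146 TPM with 4-Cl-HIPP and 88.1, 98.5 and 89.5 TPM with MTOB, where the compounds differed by -0.75. The count of 14 rests on single libraries: it was 1 without wildtype MTOB replicate 3, 3 without 4-Cl-HIPP replicate 1 of either genotype, 4 without wildtype 4-Cl-HIPP replicate 3 or dKO MTOB replicate 2, and 5 without wildtype 4-Cl-HIPP replicate 2 or dKO 4-Cl-HIPP replicate 3. It was 6 and 7 without wildtype MTOB replicates 1 and 2, and 9 without dKO MTOB replicate 1 or dKO 4-Cl-HIPP replicate 2.

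**Figure D5:**
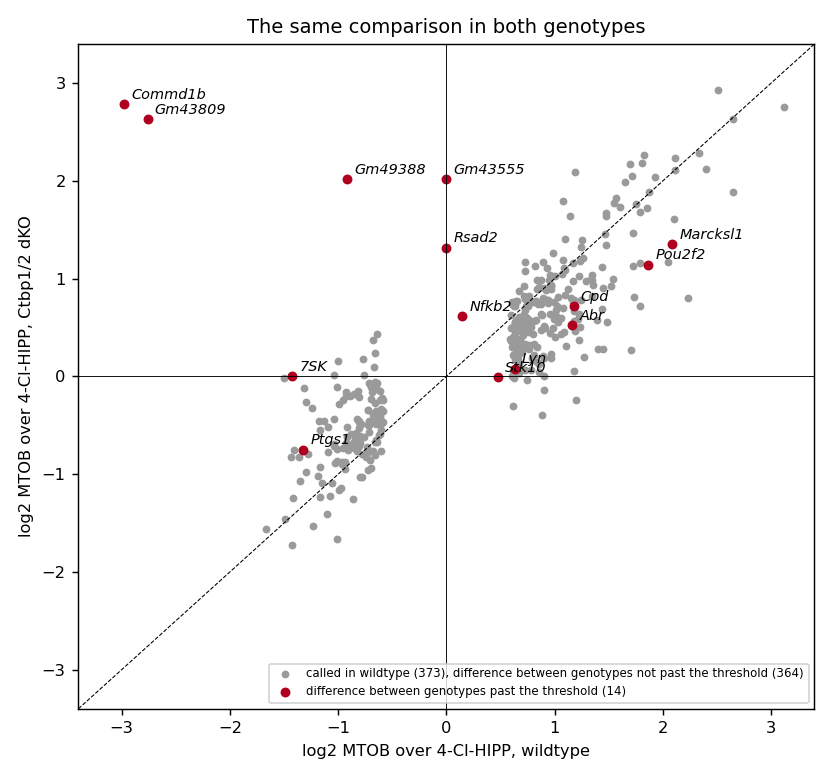
Each point is a gene, with its log2 difference of MTOB over 4-Cl-HIPP in wildtype cells on the x axis and in Ctbp1/2 dKO cells on the y axis, and the dashed line marks equal differences. Grey points are genes called in wildtype, red points the 14 genes whose difference between genotypes had an adjusted p below 0.05. Most grey points lie in the same quadrant in both genotypes, whereas Commd1b (-2.98 and 2.78) and Gm43809 (-2.76 and 2.63) have opposite signs.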

How the data were processed

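RNA of J774.1 cells was measured by RNA-seq in 18 samples, and the labels gave each one's genotype and treatment. The authors quantified reads with Salmon 1.9.0 on the Gencode transcriptome of GRCm39, imported them with tximport and tested them with DESeq2 1.44.0. The authors deposited a single file, with TPM per gene and sample, a signal (each gene's normalized count averaged over samples by DESeq2), and the log2 fold changes and adjusted p-values that the authors obtained for each inhibitor against vehicle, which are 8 columns not used here. Labels name polyA RNA, the methods rRNA depletion with an unstranded kit. Replicates are called biological, but no source says whether they were separate cultures on separate days.

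Members, gene lists and tests were chosen with earlier results of these data known. Genes above the 10th percentile of the mean normalized count (0.222) were fitted as log2(TPM + 1) with limma 3.58.1 in R 4.3.3, with data.table (version 1.17.8). The fit held 4 group means of the 12 inhibitor-treated samples and a variance trend on the mean normalized count. P-values were adjusted over the 16383 genes (Benjamini-Hochberg). Calls needed an adjusted p below 0.05 and a fold above 1.5 (log2 0.585), and the genotype difference an adjusted p below 0.05. The procedure was tested on simulated data. Lists were described by counts and medians, with no set test, and the values of 1 list member are not reported here. Genes were named as the 12 called genes per direction with the largest difference (mean of at least 10 TPM, no overlap), the 3 with the smallest p for the genotype difference, list members, Ctbp1 and Ctbp2, and genes named in the paper. The other genes of the genotype difference, and the macrophage markers singled out, were chosen after their values were seen. Alternatives changed the pseudocount, filter, samples, scaling, variance prior and replicate block, or left out 1 sample. Depth is unknown from TPM, so the 3 samples per group set the precision. Figures used matplotlib 3.10.9 in Python 3.11.15.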

Additional observations from a re-analysis of the deposited data

Results flagged for a closer look

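The difference between MTOB and 4-Cl-HIPP in wildtype, minus the same difference in dKO, passed the adjusted p (limma, Benjamini-Hochberg) for 14 genes, 6 positive and 8 negative. Values below are on the log2 scale of TPM + 1. The positive ones were Pou2f2 (0.72), Marcksl1 (0.73), Abr (0.64), Lyn (0.55), Stk10 (0.48) and Cpd (0.46), all with a larger excess of MTOB in wildtype. Ptgs1 (-0.57) had a larger excess of 4-Cl-HIPP in wildtype, and Nfkb2 (-0.47), which encodes an NF-κB subunit, a larger excess of MTOB in dKO.

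Rsad2, the antiviral enzyme viperin, had a value of -1.32. It was at most 0.191 TPM in every wildtype inhibitor sample, and in dKO it was at 8.66, 7.14 and 9.58 TPM with MTOB and 3.14, 2.59 and 2.64 TPM with 4-Cl-HIPP.

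The remaining 5 rest on libraries listed at 0, so their size depends on the pseudocount. Commd1b (-5.76) was listed at 0 in all wildtype MTOB and dKO 4-Cl-HIPP samples, and at 6.74, 5.70 and 8.44 TPM with 4-Cl-HIPP in wildtype and 4.67, 20.1 and 1.72 TPM with MTOB in dKO. It overlaps Commd1 on the same strand, and Gm43809 (-5.39) overlaps Babam2, so reads can be split between these genes. Gm49388 had a value of -2.93 and Gm43555 of -2.02, the last with TPM above 0 only in the dKO MTOB samples among the 12. A copy of 7SK had a value of -1.42, with TPM of 1.66, 1.65 and 1.74 with 4-Cl-HIPP in wildtype and 0 in the other 9 inhibitor samples.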

How the results depend on the processing

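The count of 373 called genes ranged from 282 to 427 over the alternatives and from 317 to 393 with 1 sample left out, and the share higher with MTOB (61.7%) was 68.4% with median-of-ratios scaling. Genes higher with 4-Cl-HIPP numbered 143, and 95 with a replicate block within genotype. No pairing by replicate number was seen in the values: same-numbered MTOB and 4-Cl-HIPP samples correlated at 0.01, -0.01 and 0.05 in wildtype and at -0.08, -0.01 and -0.14 in dKO. With 3 samples per group, these values cannot show that the samples were unpaired. With the replicate block as an additive term 354 genes were called in wildtype and 298 in dKO. The 14 genes that differed between genotypes became 22 in a fit of all 18 samples, 1 without the variance trend, 2 with the replicate block, 1 with the block within genotype, and between 1 and 10 with 1 sample left out. The cause was not tested. The difference of Rsad2 in wildtype, 0 to 2 decimals, turned positive with median-of-ratios scaling (0.0012), without wildtype MTOB replicate 1 (0.068) and without wildtype 4-Cl-HIPP replicate 1 (0.052), and was between -0.058 and 0.068 with 1 sample left out. Of the values of single genes, 58 of those with 1 sample left out and 37 of those under other alternatives lost their call. Depth is unknown, so a difference in low genes may not have been detectable.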
